A study of Mus musculus with 54 samples.

Results

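Imprinted genes are expressed mainly from the maternally or the paternally inherited copy of a chromosome. The 50 listed names corresponded to 49 distinct genes of the GENCODE M21 annotation, because Zac1 is an older name of Plagl1, and these genes fell into 20 imprinted clusters. Peaks of a merged ATAC-seq list were assigned to a gene when the peak centre lay within 1 kb of any of its annotated transcription start sites (TSS peaks), or when the centre lay more than 1 kb from every annotated TSS of any gene and within 50 kb of a TSS of the gene (distal peaks). With each peak counted once, 57 TSS peaks and 213 distal peaks belonged to imprinted genes, 270 of the 113737 peaks of the list. All positions are given in the GRCm38 build of the mouse genome.

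The list came from ATAC-seq, in which the Tn5 transposase cuts and tags open chromatin, in mouse embryonic stem (ES) cells of the line ZHBTc4. The cells were grown with serum, LIF, CHIR99021 and PD184352. Doxycycline (dox) represses the Pou5f1 gene, which encodes OCT4, in this line. The cells of all groups carried mCherry-OCT4-AID, a degradable OCT4 fusion removed by indole-3-acetic acid (IAA). They also carried the ubiquitin ligase Tir1, through which IAA acts, and the cell cycle reporter YPet-MD. The 54 samples formed 24 groups, all treated with dox. In the cell cycle set (22 samples, 26 hr of dox), cells sorted in Early G1, Late G1, S or SG2 had received 500 nM IAA for 2 hr or none, with 3 replicates per group except for SG2, which had 2. In the time course (16 samples, 34 hr of dox, 2 per group), IAA had been present for 30 min, 1, 2, 3, 4, 6 or 10 hr, or not at all. In the washout set (16 samples, 31 hr of dox, 2 per group), cells with or without 2.5 hr of IAA had been washed and kept for 4.5 hr before collection in the same phases. The list gave only the position of each merged region, with no value per sample. No comparison between treatments, times or phases was therefore made, and the groups' labels could not be checked against the list. A region found in any of the merged experiments enters such a list. A peak therefore does not say in which group or on which parental allele the region was accessible. A missing peak does not show closed chromatin, because sequencing depth is unknown. The study's methods also describe filters on regions, but the list holds 11 peaks above their 5 kb limit. Whether the other filters were applied to it is not known.

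Most imprinted clusters are controlled by differentially methylated regions. These are stretches of CpG-rich DNA that carry DNA methylation on the maternal or the paternal allele from the germline onwards. The zinc finger protein ZFP57 binds the hexamer TGCCGC when it is methylated and recruits TRIM28, which protects this methylation after fertilization and in ES cells. At some clusters other factors read the unmethylated allele, such as CTCF at the H19 control region, where it insulates Igf2 from its enhancers, and YY1 at Peg3.

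Stretches with ZFP57 hexamers are shown for several genes whose start sites lie at or near a control region, to make the hexamer and its surroundings visible. Whether each stretch lies within the control region itself was not checked. Where a gene had more than 1 TSS peak, the peak nearest to a TSS was used, for Grb10 that at chr11:12036454-12038605. For the TSS peaks of Snrpn, Peg3, Plagl1, Grb10 and Nnat, the first 100-base window with the most hexamers in the peak is given, 5′ to 3′ on the strand of the gene, with TGCCGC or its reverse complement GCGGCA in capitals.
Snrpn, chr7:60004327-60004426, minus strand: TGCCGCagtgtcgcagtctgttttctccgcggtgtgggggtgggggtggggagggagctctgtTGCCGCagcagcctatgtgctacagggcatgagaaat
Peg3, chr7:6730162-6730261, minus strand: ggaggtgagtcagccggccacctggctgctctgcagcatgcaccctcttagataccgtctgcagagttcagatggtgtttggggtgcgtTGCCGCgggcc
Plagl1, chr10:13090703-13090802, plus strand: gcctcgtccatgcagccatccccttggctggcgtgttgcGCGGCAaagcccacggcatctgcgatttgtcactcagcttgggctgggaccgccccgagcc
Grb10, chr11:12036787-12036886, minus strand: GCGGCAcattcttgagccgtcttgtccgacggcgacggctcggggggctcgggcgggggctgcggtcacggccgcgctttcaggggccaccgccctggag
Nnat, chr2:157561498-157561597, plus strand: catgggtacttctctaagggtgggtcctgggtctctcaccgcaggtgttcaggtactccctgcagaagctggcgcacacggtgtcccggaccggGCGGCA

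Windows of the Nap1l5 TSS peak and of the peak upstream of Rasgrf1 were added after their counts had been seen, because these peaks were among the richest in hexamers. They are marked in the same way.
Nap1l5, chr6:58906788-58906887, minus strand: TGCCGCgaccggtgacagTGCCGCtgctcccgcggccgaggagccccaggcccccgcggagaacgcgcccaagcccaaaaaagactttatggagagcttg
Rasgrf1 upstream peak, chr9:89879577-89879676, plus strand: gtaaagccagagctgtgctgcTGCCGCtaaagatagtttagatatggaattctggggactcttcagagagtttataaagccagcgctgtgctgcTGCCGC

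Most imprinted genes had accessible start sites in the list. A TSS peak was present for 38 of the 49 genes (77.6%, 95% Wilson interval 64.1 to 87, which covers counting error only). Of the 41 protein-coding imprinted genes, 36 had one (87.8%, 74.5 to 94.7), against 70.8% of all 21938 protein-coding genes. Among the 8 non-coding genes only Kcnq1ot1, the antisense RNA that silences its cluster, and Nespas, the antisense RNA of the Gnas cluster, had one (25%, 7.15 to 59.1), against 34.9% of all 10155 long non-coding genes. The map of peaks around each gene shows that the TSS peaks were mostly wide and that the 11 genes without one were spread over 7 clusters.

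**Figure D1:**
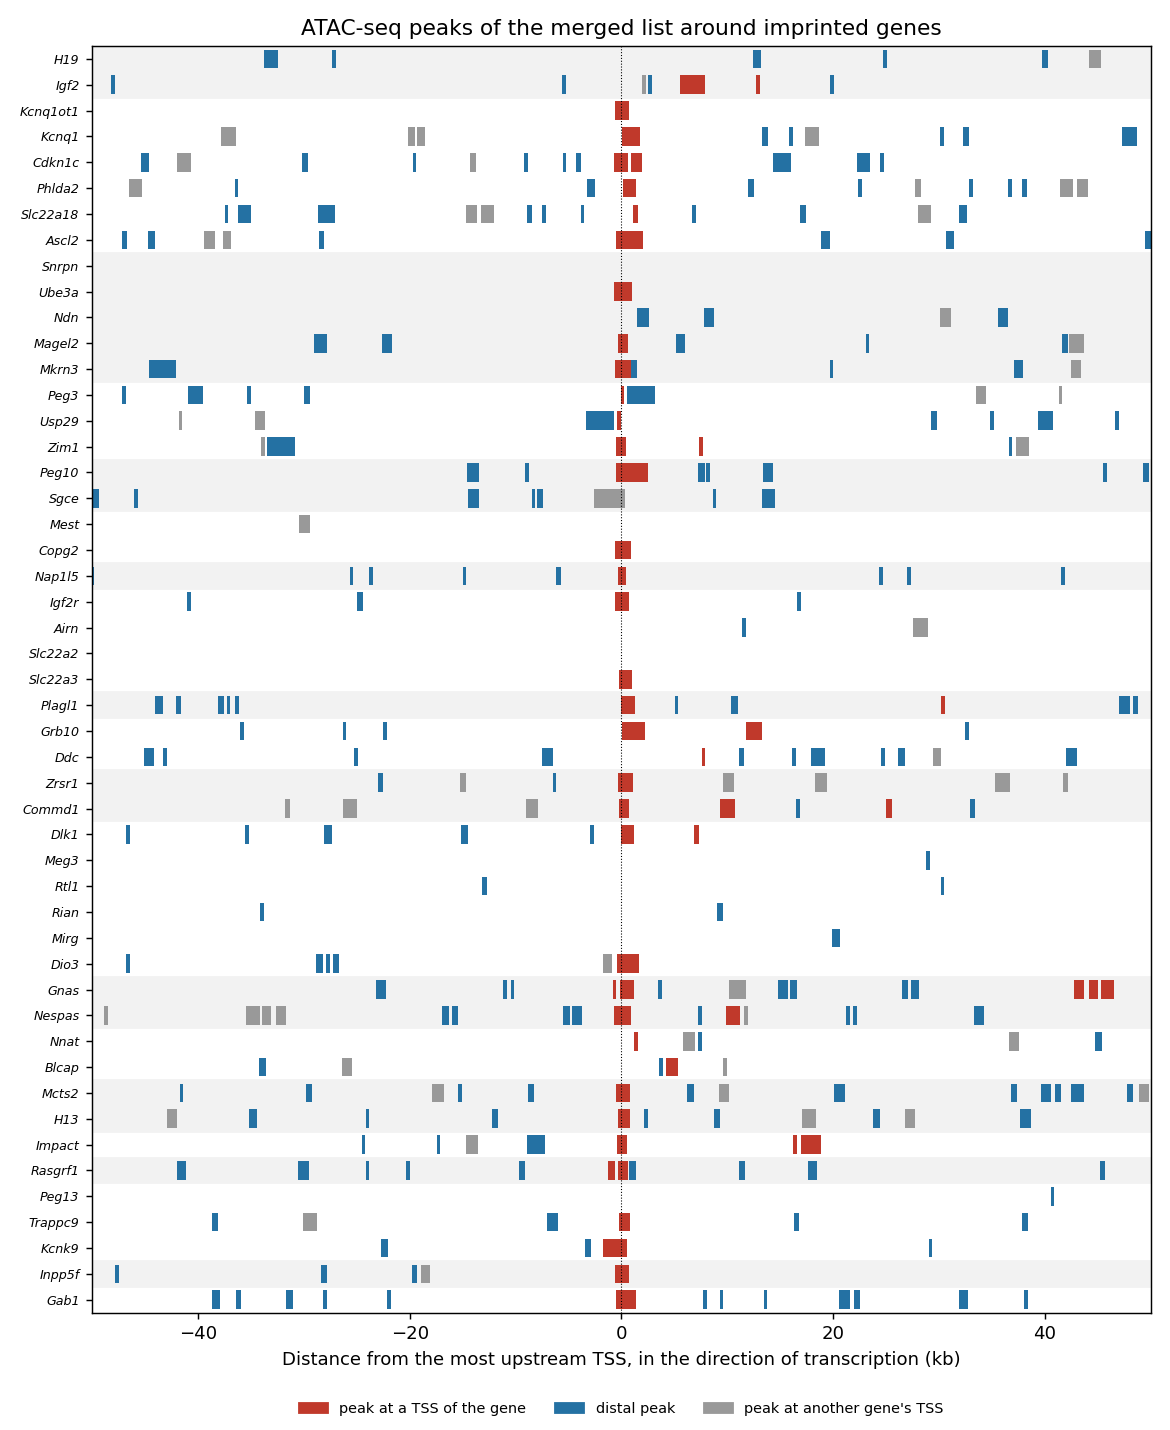
Each row is an imprinted gene, grouped by cluster with alternating shading, and the x axis gives the distance in kb from its most upstream annotated TSS in the direction of transcription. Boxes are peaks, with the narrowest widened to stay visible. 38 of 49 genes have a peak at a TSS, and peaks at TSSs more than 50 kb from the most upstream TSS, as for Snrpn, fall outside the drawn range.

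The coding genes divided by the base composition of their start sites. A TSS was called CpG-rich when the 500 bp on each side of it had a GC content of at least 50% and a CpG observed over expected ratio of at least 0.6. A CpG-rich TSS was found in 32 coding imprinted genes, of which 30 had a TSS peak (93.8%, 79.9 to 98.3), against 99.2% of the 11245 coding genes of this kind. The exceptions were Sgce, which encodes epsilon-sarcoglycan, and Mest, which encodes a protein of the alpha/beta hydrolase fold family. They were among 86 coding genes with a CpG-rich TSS and no TSS peak in the whole annotation. Of the 10693 coding genes without a CpG-rich TSS, 40.9% had a TSS peak. The 9 coding imprinted genes of this class included 6 with a TSS peak (Slc22a18, Snrpn, Magel2, Zim1, Ddc and Trappc9) and 3 without (Ndn, Slc22a2 and Rtl1).

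The 2 exceptions differed in kind. Sgce and Peg10, a gene derived from a retrotransposon, start close together in opposite directions, and 10 of the 12 annotated Sgce start sites lay inside the peak of Peg10 at chr6:4746828-4749815. This peak was 2988 bp wide, the widest at any imprinted TSS, and its centre was 1115 bp from the nearest Sgce TSS, just beyond the 1 kb limit. Just inside that limit were a Gnas peak at 930 bp and a Rasgrf1 peak at 922 bp, and just outside it were peaks of Ddc at 1053 bp and of Rasgrf1 at 1095 bp, counted as distal. For Mest, in contrast, none of 10 annotated start sites lay in a peak and the nearest peak centre was 29965 bp away. The list held no peak between chr6 positions 30694114 and 30804848, a gap of 110733 bp, whereas the gaps between neighbouring peaks of the whole list had a median of 9117 bp and a 95th percentile of 82390 bp.

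Both alleles' genes were represented. Each gene was assigned an expressed allele by hand, and whether it is expressed from that allele in these cells was not measured. Among genes assigned to the paternal allele, 21 of 27 had a TSS peak, and among those assigned to the maternal allele, 13 of 18. The 4 genes assigned to either allele by tissue or transcript (Gnas, Grb10, Blcap and H13) all had one. Among coding genes only, the counts were 19 of 23 for paternal and 13 of 14 for maternal expression, with intervals that overlapped (62.9 to 93.0% and 68.5 to 98.7%). A single maternally expressed coding gene, the transporter gene Slc22a2, lacked a TSS peak.

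The TSS peaks of imprinted genes were CpG-rich over their own length more often than proximal peaks in general. Of the 57 peaks, 34 passed the GC and CpG limits (59.6%, 46.7 to 71.4), against 46.5% of the 23943 proximal peaks of the list. Their median width was 1129 bp (range 181 to 2988), against 970 bp for all proximal peaks, and their median GC content was 60.3%, against 57%. The most CpG-dense peak was a Grb10 peak at chr11:12025407-12026885, with a CpG ratio of 1.01, and the most GC-rich was a Gnas peak at chr2:174329601-174330898, with 76.1% GC. Low values also occurred, down to a CpG ratio of 0.112 in an intron peak of Commd1. Both values were averaged over the whole peak, and the difference between the shares was not tested.

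**Figure D2:**
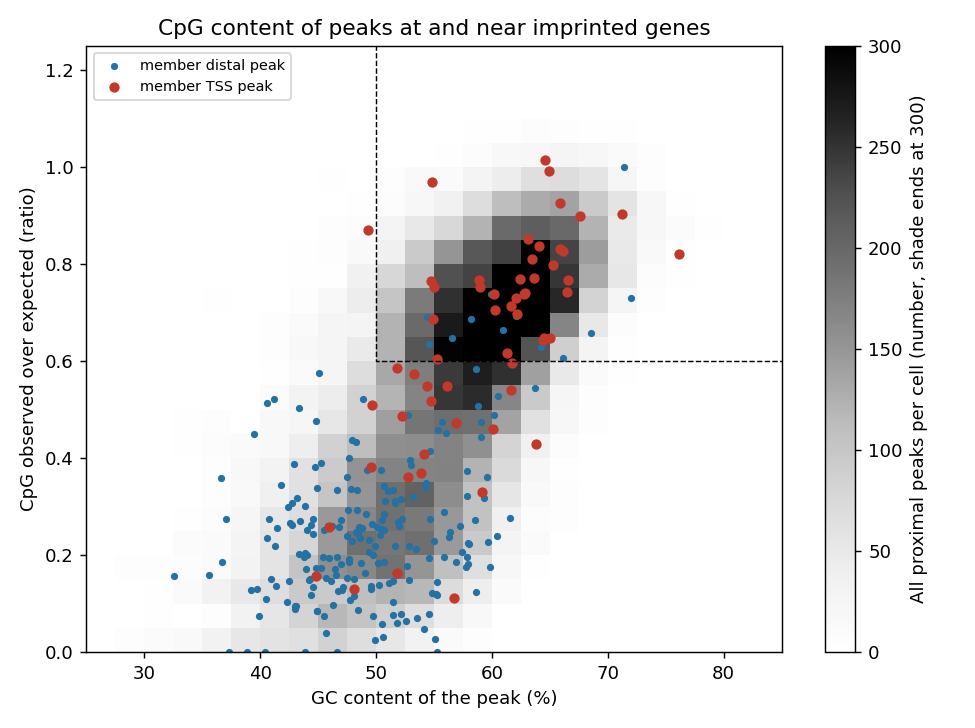
GC content of each peak (x axis, %) against its CpG observed over expected ratio (y axis), with red points for the 57 TSS peaks and blue points for the 213 distal peaks of imprinted genes, over grey cells that count all 23943 proximal peaks. The dashed lines mark the CpG-rich limits of 50% and 0.6, and 34 red points pass both of them.

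ZFP57 hexamers were found in a larger share of peaks at imprinted start sites than at start sites in general. With both strands searched, 31 of the 57 TSS peaks held at least 1 hexamer (54.4%, 41.6 to 66.6), against 39.2% of all proximal peaks. Since wider peaks hold more letters, the density is given as well: 1.15 hexamers per kb in the imprinted TSS peaks and 0.679 in all proximal peaks. In equal windows of 400 bp around the peak centre the shares were 33.3% (22.5 to 46.3) and 25.1%, the second within the interval of the first. In the RefSeq promoters of GRCm38, which run from 250 bases before to 50 bases after a gene's start, 14 of 54 imprinted promoters (25.9%) and 11.6% of all 32851 promoters held a hexamer. The 54 promoters belonged to 38 of the imprinted genes. The hexamer is itself GC-rich and contains a CpG, and the part of base composition in these shares was not tested.

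The hexamers concentrated in a few peaks. At least 5 were found in 5 of 57 imprinted TSS peaks (8.77%, 3.81 to 18.9) and in 1.06% of all proximal peaks, a limit chosen after the counts had been seen. The Snrpn peak at chr7:60003810-60005190, which lies 611 bp into the gene from the nearest TSS, held 9, the most of any peak in the clusters. The peak at Kcnk9, a potassium channel gene, held 6 (chr15:72545800-72548070). Nap1l5 and Nespas each had a peak with 5, at chr6:58906593-58907375 and chr2:174294473-174296139. Ascl2, a transcription factor gene needed in the placenta, had a peak with 4, and so did both TSS peaks of Grb10, an adaptor protein gene that restrains growth signalling. Not every control-region gene was rich in them, since the 1297 bp peak at the Kcnq1ot1 start held none, and neither did the 1433 bp peak shared by Zrsr1 and Commd1.

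Away from start sites, 3 of 213 distal peaks (1.41%, 0.480 to 4.06) held at least 5 hexamers, against 0.0412% of all distal peaks and 0.0642% of those within 50 kb of any coding gene. The first lay 30056 bp upstream of Rasgrf1, a guanine nucleotide exchange factor gene, at chr9:89879337-89880366, and held 6 hexamers in 1030 bp. In its printed window both hexamers were preceded by the same 10 bases. The second was an exon peak of Gnas, which encodes the stimulatory G protein alpha subunit, at chr2:174299123-174300081, with 5 hexamers in 959 bp. The third lay in an intron of Peg3 and also held 5. Over all distal peaks near imprinted genes, 11.3% held a hexamer (7.69 to 16.2), against 7.98% of all distal peaks and 9.30% of those within 50 kb of any coding gene, both within the interval.

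**Figure D3:**
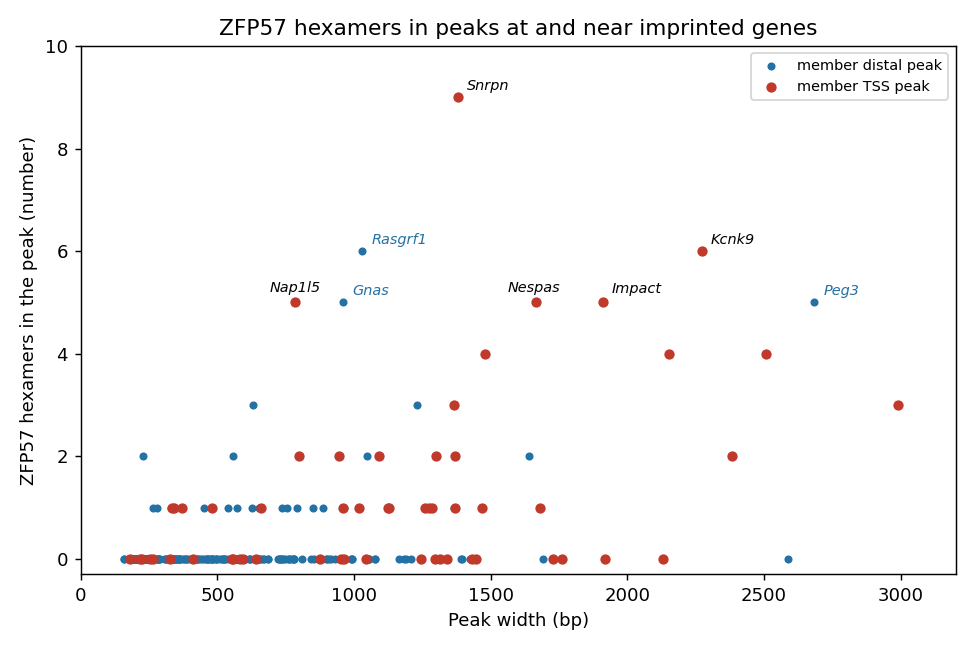
Number of ZFP57 hexamers in each peak (y axis) against the width of the peak in bp (x axis), with red points for TSS peaks and blue points for distal peaks of imprinted genes. Peaks with 5 or more are named by their gene or, for distal peaks, the nearest imprinted gene, and Snrpn stands highest with 9 hexamers.

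The Peg3 intron peak stood apart through a different sequence. Peg3, a zinc finger gene, and Usp29, a deubiquitinase gene, start next to each other in opposite directions and shared a narrow TSS peak of 334 bp at chr7:6730162-6730495. Beside it, centred 1838 bp inside Peg3 and therefore counted as distal, was a peak of 2683 bp at chr7:6727240-6729922, the widest distal peak near any imprinted gene. It held 12 matches to the YY1 core AANATGGC, whereas no TSS peak of the clusters held more than 2. At least 10 matches, a limit chosen after these counts had been seen, were found in 4 of the 89794 distal peaks of the list. Any match at all was found in 10.3% of the distal peaks near imprinted genes and in 8.80% of all distal peaks, and in 15.8% of imprinted TSS peaks and 14.2% of all proximal peaks. The first 240-base window with the most matches, 3, is shown on the strand of Peg3 with the matches in capitals, and it too was chosen after the counts had been seen.
Peg3 intron peak, chr7:6727732-6727971, minus strand: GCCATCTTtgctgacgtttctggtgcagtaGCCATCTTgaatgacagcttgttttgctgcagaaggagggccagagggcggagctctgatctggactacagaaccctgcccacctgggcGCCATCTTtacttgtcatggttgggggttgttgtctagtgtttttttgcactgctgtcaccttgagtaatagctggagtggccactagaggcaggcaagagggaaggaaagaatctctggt

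In the Igf2-H19 cluster the fetal growth factor gene Igf2 had 2 TSS peaks and the non-coding RNA gene H19 had none. The Igf2 peak nearest to a TSS was 2384 bp wide (chr7:142658887-142661270, centre 590 bp from the TSS, 2 ZFP57 hexamers), and the other was 216 bp wide. The nearest peak to H19 was centred 11178 bp away, and the list held no peak between chr7 positions 142565741 and 142605102, a gap of 39360 bp. Within 10 kb upstream of H19, a search for the CTCF core known from the H19 control region, with at most 1 base changed, found 4 sites, at 2166, 2621, 3647 and 3891 bp from the most upstream H19 TSS. None of them lay in a peak of the list. They are printed because the insulation of Igf2 depends on such sites, on the strand of H19 with the core in capitals and 15 bases on each side, and this search was added after the peaks had been seen.
H19 upstream 2166 bp, chr7:142580294-142580337, minus strand: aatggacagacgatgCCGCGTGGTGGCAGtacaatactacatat
H19 upstream 2621 bp, chr7:142580749-142580792, minus strand: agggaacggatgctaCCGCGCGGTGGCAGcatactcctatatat
H19 upstream 3647 bp, chr7:142581775-142581818, minus strand: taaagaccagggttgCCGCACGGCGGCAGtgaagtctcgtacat
H19 upstream 3891 bp, chr7:142582019-142582062, minus strand: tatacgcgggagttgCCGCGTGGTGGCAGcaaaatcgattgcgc

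The cluster had 9 distal peaks, of which 4 held a match to a general CTCF consensus of 12 letters with at most 1 base changed. The matching peak downstream of H19 at chr7:142564979-142565741 was also the one nearest to that gene. The others lay 38445 bp downstream of H19 (chr7:142537806-142538380), 6118 bp from an Igf2 TSS (chr7:142646731-142647092) and at an offset of -5408 bp, upstream of Igf2 (chr7:142672063-142672385). None of the 11 peaks of the cluster held the H19-type core. This core was found in 2 of the 213 distal peaks near imprinted genes (0.939%, 0.258 to 3.36), against 0.314% of all distal peaks, and in 3 of the 57 TSS peaks (5.26%, 1.81 to 14.4), against 3.60% of all proximal peaks.

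In the Dlk1-Meg3 cluster the coding genes at its ends had TSS peaks, and the genes between them, non-coding except for Rtl1, had none. Dlk1, which encodes a Notch ligand-like protein, had a TSS peak of 1259 bp (chr12:109452789-109454047) and a second of 479 bp. Dio3, which encodes a deiodinase that inactivates thyroid hormone, had one of 2130 bp (chr12:110278641-110280770). Meg3, Rian and Mirg, non-coding RNA genes expressed from the maternal allele, had no TSS peak at any of their 11, 19 and 11 annotated start sites, and nor had Rtl1, a paternally expressed gene of retrotransposon origin. The nearest peak centres were 20729 bp from a TSS of Meg3, 12929 bp from Rtl1, 7068 bp from Rian and 2126 bp from Mirg. The stretch without a peak around the Meg3 start measured 109678 bp. Of the 13 distal peaks of the cluster, 3 held the general CTCF consensus, at chr12:109437656-109438309 upstream of Dlk1 and at chr12:109749714-109750466 and chr12:109789985-109790748 near Mirg.

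Airn in the Igf2r cluster and Peg13 in the Peg13 cluster completed the non-coding genes without a TSS peak. Igf2r, whose product clears IGF2 from the cell surface, had a CpG-rich peak of 1370 bp at chr17:12768917-12770286. Airn, the antisense RNA that silences this cluster on the paternal allele, starts within Igf2r and had no peak centre closer than 5412 bp to any of its 6 start sites. Peg13 lies in an intron of Trappc9, and its nearest peak centre was 40749 bp away in a stretch of 123709 bp without peaks. The start sites of Airn, Peg13 and Meg3 had CpG ratios of 0.586, 0.584 and 0.576 and a GC content above 50%, just under the limit used here for CpG-rich. Of the 151 long non-coding genes of the annotation whose best start site had a ratio from 0.55 to 0.6 with the same GC limit, 133 had a TSS peak (88.1%), a comparison added after the values had been seen. H19 had a ratio of 0.503 and Kcnq1ot1, which did have a TSS peak, 0.449.

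**Figure D4:**
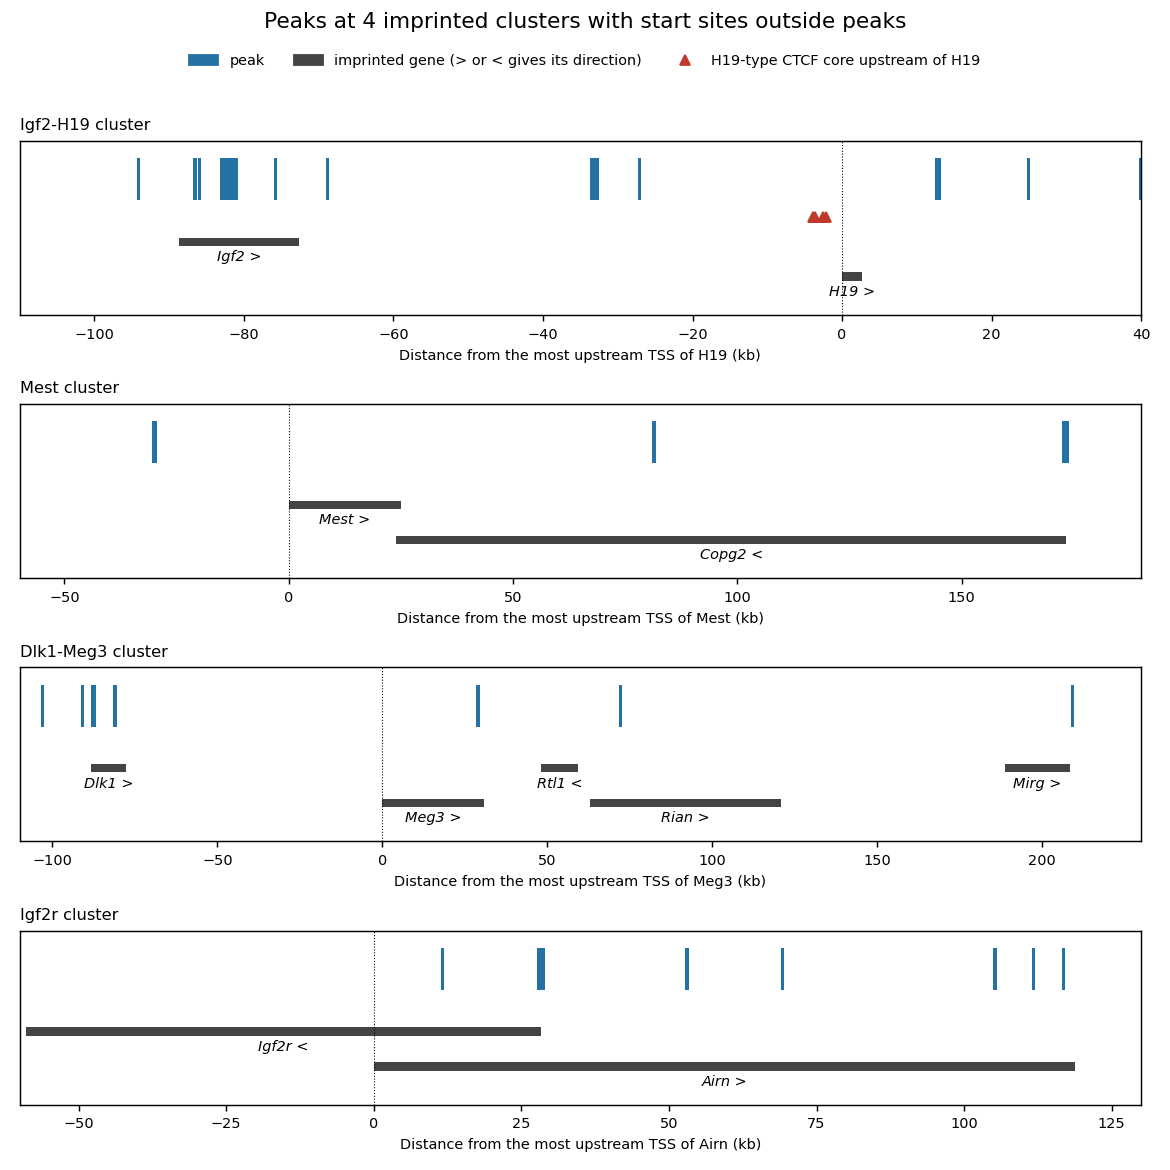
Each panel is an imprinted cluster, with distance in kb from the most upstream annotated TSS of H19, Mest, Meg3 or Airn on the x axis, blue boxes for peaks and dark bars for imprinted genes with their direction. Red triangles mark the 4 H19-type CTCF cores, which lie 2166 to 3891 bp upstream of H19 in a stretch of 39360 bp without a peak.

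The remaining genes without a TSS peak were Ndn and Slc22a2. Ndn, which encodes the MAGE family protein necdin, has a single exon, and the nearest peak was centred 2022 bp from its TSS, within the gene body (chr7:62348008-62349173). Its single annotated TSS had a GC content of 37.8% and a CpG ratio of 0.169, and this peak 58.66% and 0.584. Whether the gene also starts within the peak was not tested. The other genes of the Snrpn cluster each had a TSS peak. These were Ube3a, a ubiquitin ligase gene (chr7:59228048-59229727), Snrpn, which encodes a spliceosomal protein, Magel2, a relative of Ndn (chr7:62376715-62377677), and Mkrn3, a ring finger gene (chr7:62419268-62420713). Slc22a2 was 76622 bp from any peak centre, while the related transporter gene Slc22a3 in the same cluster had a peak of 1245 bp at its TSS (chr17:12506710-12507954).

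All 6 genes of the Kcnq1 cluster had a TSS peak, with 7 such peaks in all. The Kcnq1ot1 peak at chr7:143295841-143297137 lies in an intron of Kcnq1, a potassium channel gene, was 1297 bp wide, and had a CpG ratio of 0.487. The Cdkn1c gene, which encodes an inhibitor of cyclin-dependent kinases, had 2 peaks of 1093 and 1284 bp, both CpG-rich, the second nearest to a TSS (chr7:143460440-143461723). Phlda2, which limits placental growth, had one at chr7:143501731-143503005, and Ascl2 had the widest of the cluster with 2506 bp (chr7:142967255-142969760). The peak of Slc22a18, another transporter gene, was the narrowest at 555 bp (chr7:143474800-143475354) and had a CpG ratio of 0.330. CpG-rich distal peaks near Cdkn1c numbered 3, at distances of 4016, 13434 and 21186 bp from its nearest TSS.

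In the Gnas cluster 7 TSS peaks were found, 6 of them at start sites of Gnas and a pair at start sites of Nespas, with a peak of 1369 bp at chr2:174284181-174285549 shared by both genes. The CpG-rich ones numbered 4, and together the TSS peaks of the cluster held 13 hexamers, the highest total of the 20 clusters, followed by 10 in the Snrpn cluster and 8 each in the Kcnq1 and Grb10 clusters. CpG-rich distal peaks in Gnas exons numbered 2, the one with 5 hexamers named above and one at chr2:174300279-174300948. In the Grb10 cluster, the Grb10 peaks had CpG ratios of 0.992 and 1.01, whereas the 3 TSS peaks of Ddc, which encodes dopa decarboxylase, had ratios from 0.362 to 0.509 and no hexamer.

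Several imprinted genes lie inside a host gene, and the annotation placed 6 members in a host of the protein-coding class. Nap1l5 in Herc3, Zrsr1 in Commd1, Nnat in Blcap, Mcts2 in H13 and Kcnq1ot1 in Kcnq1 each had a TSS peak, and Peg13 in Trappc9 had none. The Mcts2 peak, at chr2:152686523-152687886, was 1364 bp wide, with a CpG ratio of 0.871, a GC content of 49.3%, just under the limit, and 3 hexamers. The Nnat peak was narrow, at 370 bp, and none of the 10 Nnat start sites lay inside it. Its centre was 438 bp from the nearest of them. The peak of the Zrsr1 start was also counted for Commd1, which has annotated start sites there. The host genes Blcap, H13, Kcnq1, Trappc9 and Commd1 had TSS peaks of their own.

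The genes not yet described each had a TSS peak. Plagl1, a zinc finger transcription factor gene, had 3, of which that at chr10:13090703-13091045 was centred exactly on a TSS, was CpG-rich and held 1 hexamer. Impact had 3 on chromosome 18, and the peak of 1910 bp in an intron, centred 505 bp upstream of an annotated start site, was the CpG-rich one and held 5 hexamers. Rasgrf1 had 2, both CpG-rich, with the nearest at chr9:89909568-89910519, and none of its 9 distal peaks held the general CTCF consensus. Inpp5f, a phosphoinositide phosphatase gene, had a CpG-rich peak of 1313 bp at its upstream start (chr7:128610751-128612063) and a small one of 224 bp at a start within the gene. Gab1, a docking protein gene, had one of 1917 bp (chr8:80879095-80881011). Copg2, which is expressed from the maternal allele next to Mest, had one of 1468 bp (chr6:30895915-30897382), and Zim1, a maternally expressed zinc finger gene beside Peg3, had 2 peaks of 958 bp (chr7:6695998-6696955) and 252 bp.

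Distal peaks were about as frequent around imprinted genes as around coding genes in general. The median was 5 per imprinted gene (quartiles 2 and 8) and 4 per coding gene (quartiles 2 and 7), or 5 for coding genes with a TSS peak. At least 1 distal peak was found within 50 kb of 44 of the 49 genes, against 90.2% of coding genes. In the union of the 50 kb windows, the density was 45.9 distal peaks per Mb for imprinted genes (213 in 4.645 Mb) and 41.9 per Mb for coding genes. Of the 213, 116 lay in introns, 20 in exons and 77 between genes, 63 were within 50 kb of more than 1 imprinted gene, and 89 had an imprinted gene as the owner of the nearest TSS. Imprinted genes with a TSS peak had a median of 6 and those without one a median of 2, the same contrast in direction as the medians of 5 and 2 over all coding genes.

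The clusters differed widely in this number. Usp29 had the most distal peaks of any imprinted gene with 21, while 99% of coding genes had fewer, and its annotated start sites spread over a long stretch. It was followed by Ddc with 18, Gab1 with 16, H13 with 15, and Grb10 and Mcts2 with 13 each. None was found near Kcnq1ot1, Mest, Copg2, Slc22a2 or Slc22a3. By cluster, the density was highest around Mcts2 and H13 (122.57 per Mb), Gab1 (106.93), Rasgrf1 (90 per Mb), Grb10 and Ddc (85.51) and Peg3 (84.43). It was lowest around Mest and Copg2, with none in 218.9 kb, and below 20 per Mb in the Zrsr1 (15.94), Igf2r (17.88), Nnat (17.97) and Snrpn (18.24) clusters. The numbers by gene depend on how many start sites are annotated, since each adds to the searched window.

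**Figure D5:**
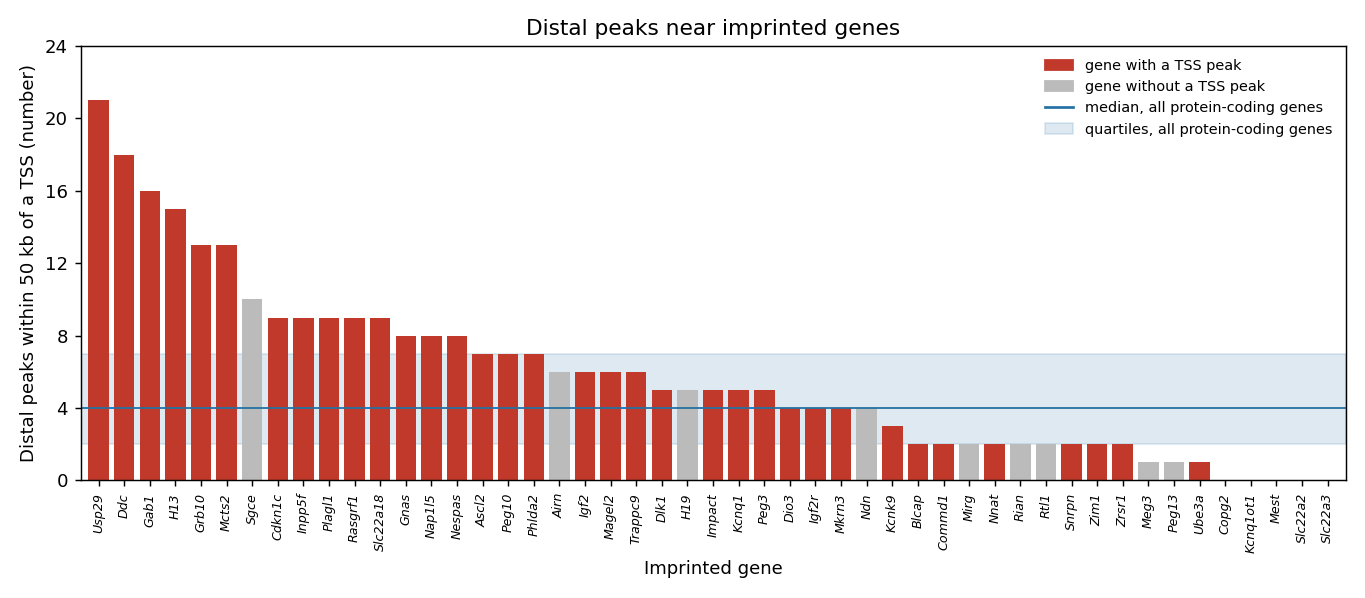
Count of distal peaks (y axis, 50 kb on either side of any TSS) for each imprinted gene (x axis), with red bars for genes with a TSS peak and grey bars for those without. The blue line and band give the median of 4 and the quartiles of 2 and 7 over all protein-coding genes, and Usp29 stands highest with 21.

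Distal peaks near imprinted genes were wider than distal peaks in general, with a median of 484 bp against 380 bp, and 12 of them were CpG-rich (5.63%, 3.25 to 9.59), against 2.54%. Beside the 56112 distal peaks within 50 kb of any coding gene, the differences were smaller, since those had a median of 412 bp and 3.21% were CpG-rich. The general CTCF consensus was found in 52 of the 213 (24.4%, 19.1 to 30.6) and in 16.1% of all distal peaks. In equal windows of 400 bp the shares were 20.7% (15.8 to 26.6) and 15.2%. Of the distal peaks within 50 kb of any coding gene, 19.5% held the consensus, a share within the interval for imprinted genes. The comparisons with distal peaks near coding genes were added after the values had been seen. At TSS peaks the shares were 17.5% for imprinted genes (9.82 to 29.4) and 18.4% for all proximal peaks. Among the distal peaks the match was most frequent by count in the Grb10 cluster, with 7, and the Kcnq1 cluster, with 6.

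Consensus sequences of the pluripotency factors were counted in the same peaks, and no difference from all peaks was tested. The composite OCT4::SOX2 consensus, with at most 2 of its 15 letters changed, was found in 1 of the 213 distal peaks (0.469%, 0.0829 to 2.61), against 0.263% of all distal peaks. That peak overlaps an exon of Peg12 at chr7:62462174-62464761, at an offset of -43329 bp (upstream) from Mkrn3. Among TSS peaks the small Inpp5f peak at chr7:128664287-128664510 was the only match (1.75%, 0.310 to 9.29), against 0.226%. With 3 letters changed, the shares were 2.35% and 2.36% in distal peaks, and 3.51% (0.968 to 11.9) and 1.73% in TSS and all proximal peaks. The octamer ATTTGCAT was found in 3 distal peaks (1.41%, 0.480 to 4.06), against 3.05%, and in no TSS peak, with an upper bound of 6.31%, against 3.12% of all proximal peaks. For the SOX core CATTGT the shares in distal peaks were 26.3% and 26.0%. The KLF core GGGNGNGGC was found in 43.9% of imprinted TSS peaks (31.8 to 56.7), against 51.3%, and in 19.7% of distal peaks (14.9 to 25.6), against 17.1%. The ESRRB site TCAAGGTCA was found in 2 distal peaks (0.939%, 0.258 to 3.36), against 3.11%. Over whole peaks, the intervals for the octamer, SOX, KLF and ESRRB shares given here included the share of all peaks of the same kind. In equal windows of 400 bp this did not hold for 3 of them. The octamer was found in 0.469% of the windows of distal peaks (0.0829 to 2.61), against 2.65%. The ESRRB site was found in 0.469% of them (0.0829 to 2.61), against 2.75%, and the KLF core in 22.8% of the windows of TSS peaks (13.8 to 35.2), against 35.7%. In the windows of distal peaks the KLF core was found in 19.2% (14.5 to 25.1), against 15.1%.

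In the RefSeq promoters of all genes, the shares with a match were 4.33% for the general CTCF consensus, 0.743% for the H19-type core, 6.05% for YY1, 1.74% for the octamer, 12.6% for the SOX core, 25.8% for the KLF core, 0.423% for the ESRRB site and 0.122% for the composite OCT4::SOX2 consensus. In the 54 imprinted promoters they were 3.70%, 1.85%, 5.56%, 0.0%, 5.56%, 22.2%, 0.0% and 0.0% in the same order. Each of these shares from imprinted promoters rests on 12 promoters or fewer.

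Genes of the imprinting machinery had accessible start sites in the list for the most part, where 70.8% of all coding genes had one. Of 8 genes for factors that maintain imprints, 7 had a TSS peak, among them Zfp57, Zfp445, Trim28, Dnmt1 and Uhrf1. The eighth was Dppa3, which encodes a maternal factor that protects methylation in the zygote, with the nearest peak centre 1409 bp from its TSS. All 5 genes listed by hand for the establishment of imprints in the germline had one, namely Dnmt3a, Dnmt3b, Dnmt3l, Kdm1b and Ctcfl. Of 20 further imprinted genes outside the list, 15 had a TSS peak, and Ins2, Th, Asb4, Htr2a and Peg12 did not. Their median of distal peaks was 5.5, against 4 for all coding genes.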

How the data were processed

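The authors aligned ATAC-seq reads to GRCm38 (mm10) with STAR 2.6.1c, removed duplicates with Picard, called peaks with MACS2 2.1.1.20160309 and merged them with bedtools. The deposited list of 113737 merged peaks gives a chromosome, start and end in bp, with no count or signal, so sequencing depth is unknown and no value has replicates. Whether peaks were called per library is not given in the sources used here. The study's methods describe the removal of peaks above 5 kb, of peaks that coincide with peaks of input samples and of blacklisted peaks. The list still held 11 peaks above 5 kb, none of them at or near an imprinted gene. The width filter was therefore not applied to it as described. Whether the other filters were applied, and which regions they took out, is not known from the list. The columns of other samples numbered 0.

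Positions were compared with GENCODE M21 start sites and GRCm38.p6 sequence in Python 3.11.15 (numpy 2.4.6, pandas 2.3.3). Both strands were searched for each consensus, with base changes allowed only in those of 10 or more letters. A TGCCGC match can overlap a KLF, YY1 or CTCF match. Shares carry 95% Wilson intervals, which cover counting error only. The scripts were tested on simulated data. No test was made. Shares of genes are set beside those of all protein-coding or all long non-coding genes, and shares of peaks beside those of all peaks.

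The members and lists were chosen with earlier results of these data known. All members are named, positions are given for most TSS peaks described and for the CTCF-matching distal peaks of the Igf2-H19 and Dlk1-Meg3 clusters, and windows follow a fixed rule except where said. The Peg10 window of that rule holds 73 bases of an untranslated region and is not printed, whereas the printed windows hold at most 15. Coding sequence did not enter that choice. The printed Nnat window holds 82 coding bases, and all 100 bases of the Nap1l5 window are coding, whereas the other printed windows hold none. Alternatives are given at the end.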

Additional observations from a re-analysis of the deposited data

How the results depend on the processing

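Of 46 alternatives to 8 results, 35 moved the value by less than its error or 1.5 times, and 11 moved it further. The number of genes with a TSS peak lay between 34 (limit of 500 bp) and 41 (limit of 2500 bp). Among coding genes only, 32 of 41 imprinted genes (78.0%) had one at 500 bp, against 67.2% of all coding genes. At 2500 bp it was 38 of 41 (92.7%), against 74.8%. The 213 distal peaks became 104 within 20 kb, 330 within 100 kb and 89 when the nearest TSS had to be that of an imprinted gene, and the median per gene became 2, 10 and 2. The coding genes had medians of 2 and 9 at 20 and 100 kb. The CpG-rich share of TSS peaks was 45.6% under limits of 55% GC and a ratio of 0.65 (33.4 to 58.4), an interval that includes the 35.2% of all proximal peaks, and the share with 2 or more ZFP57 hexamers was 28.1% (18.1 to 40.8), against 15.9%. The CTCF share of distal peaks was 30.8% within 20 kb (20.6% of distal peaks within 20 kb of coding genes), 9.39% with no base changed and 57.7% with up to 2 changed, where all distal peaks had 4.53% and 44.4% at 0 and 2 changes. The OCT4::SOX2 share of distal peaks rose from 0.469% to 2.35% with 3 letters changed, where all distal peaks had 2.36%. The cause of the higher CTCF share within 20 kb was not tested. No paired analysis was possible because no value belonged to a sample. Depth is unknown here, and so is whether the authors' filters on input and blacklisted regions were applied to this list. Both limit what an absent peak can mean, at H19, Mest, Meg3 and Peg13 too, and their part was not tested.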
